A study of Mus musculus with 2 samples.

Results

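The enzymes and the transporter that make, modify and deliver the ceramides of the skin barrier were examined in mouse keratinocytes. By the design text the cells were sorted, from floxed Med1 mice without and with Cre. The set comprised 10 genes chosen by name, Fa2h, Alox12b, Aloxe3, Elovl4, Degs1, Degs2, Ugcg, Abca12, Sptlc1 and Sptlc2, of 16593 genes with a named probe on the array. The choice was made with earlier results of these data known. Every probe annotated to these genes was taken, which gave 11 probes, with a second probe for Abca12 only. Of the 10 genes, 8 were detected on both arrays, and Degs2 and Sptlc2 were detected on neither.

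RNA was hybridized to 2 Illumina bead arrays, 1 for each genotype. The control pool (CON) came from MED1 fl/fl C57BL6 littermates without Cre, and the knockout pool (Med1cKO) from MED1 fl/fl Cre mice, in which the keratin 14 promoter drives the recombinase in basal epidermal and follicle cells. Both groups thus carried the floxed Med1 alleles, and the labels used here state no ages. By the design text, skin cells of 3 mice per genotype were combined and the CD34-negative, integrin alpha6-positive keratinocytes were sorted, although other protocol fields describe RNA from whole back skin of each mouse. Med1 encodes a Mediator subunit that bridges nuclear receptors and other transcription factors to RNA polymerase II.

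With 1 array per group there was no replicate error and no test, so every difference compares 2 pools and is described by its size. Median intensities were 197.6 (CON) and 191.17 (Med1cKO) over 25697 probes. The basal markers Krt14 (log2 ratio, Med1cKO minus CON, 0.09) and Itga6 (-0.13) were detected on both arrays, as was Cd34 (-0.31), a marker that the sort was meant to leave out. The Med1 probe with the highest level read 794 intensity units in CON and 452 in Med1cKO (log2 ratio -0.998). Other Med1 probes had log2 ratios of -0.82 (detected on both arrays) and -1.51 (detected in CON only), and another was detected on neither array. The labels do not say which exons were deleted, so the probes do not check the deletion.

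Ceramides are built from serine and a fatty acyl chain and are the main lipids between the dead cells of the outer skin. Serine palmitoyltransferase starts the pathway, ceramide synthases add a second fatty acid, and desaturases finish the sphingoid base. In the epidermis the fatty acid is lengthened to an ultra-long chain, some ceramides are hydroxylated, and glucosylceramides are loaded into lamellar granules for export. Lipoxygenases then oxidize the linoleate of acylceramides so that ceramides can be bound to the cornified envelope. In humans, loss of ABCA12, ALOX12B or ALOXE3 causes ichthyosis.

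The array annotation gives no sequence for its probes, and the regions printed here are those upstream of the genes. Of the 10 genes, 8 had an entry in the RefSeq promoter table (build GRCm38.p6), which covers 250 bases before to 50 bases after the gene start; Fa2h and Aloxe3 were not among them. The 3 promoters shown belong to the members with the next largest differences after Fa2h, and are the Alox12b promoter (chr11:69156822-69157121, plus strand), the Degs1 promoter (chr1:182282146-182282445, minus strand) and the Elovl4 promoter (chr9:83806256-83806555, minus strand). Each is written 5′ to 3′ along its gene, with capitals where a searched motif matched.
Alox12b: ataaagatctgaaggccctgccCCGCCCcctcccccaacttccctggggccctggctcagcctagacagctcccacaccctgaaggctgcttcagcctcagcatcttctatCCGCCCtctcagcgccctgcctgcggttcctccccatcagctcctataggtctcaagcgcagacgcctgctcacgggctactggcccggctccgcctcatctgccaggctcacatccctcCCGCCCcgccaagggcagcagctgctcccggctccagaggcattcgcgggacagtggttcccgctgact
Degs1: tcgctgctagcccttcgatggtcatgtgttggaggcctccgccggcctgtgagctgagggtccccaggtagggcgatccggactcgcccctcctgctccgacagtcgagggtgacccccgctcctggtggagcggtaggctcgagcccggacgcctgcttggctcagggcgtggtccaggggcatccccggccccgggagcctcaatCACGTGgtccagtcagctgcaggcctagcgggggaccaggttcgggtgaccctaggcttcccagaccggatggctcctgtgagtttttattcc
Elovl4: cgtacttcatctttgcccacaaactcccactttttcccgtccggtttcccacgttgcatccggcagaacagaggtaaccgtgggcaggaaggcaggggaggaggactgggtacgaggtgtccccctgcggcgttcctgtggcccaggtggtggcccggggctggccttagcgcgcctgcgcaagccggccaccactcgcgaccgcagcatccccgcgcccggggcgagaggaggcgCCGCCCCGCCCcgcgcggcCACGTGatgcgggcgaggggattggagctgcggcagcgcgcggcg
Matches were sought on both strands to the grainyhead motif AACCGGTT, the AP-1 motif TGANTCA, the nuclear receptor element AGGTCA, the TATA box TATAAA, the E-box CACGTG and the GC box GGGCGG. The E-box and GC box were added after the sequences had been read. None of the 8 member promoters held a grainyhead, AP-1, nuclear receptor or TATA match, motifs present in 0.146%, 7.81%, 16.3% and 13.6% of all 32851 promoters in the table. The E-box occurred in Degs1 and Elovl4, and in 7.15% of all promoters. The GC box occurred 3 times in Alox12b and 2 times in Elovl4, where its matches overlap by 1 base, and not in Degs1. It was found in 6 of the 8 member promoters (not in Degs1 or Abca12), against 35.7% of all promoters. The G and C content was 66% for Alox12b, 67.3% for Degs1 and 71% for Elovl4, above the median of 52.7% over all promoters. A missing match says only that these letters are not in the window, and matches are not binding sites.

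Fa2h and Alox12b were at least 2-fold higher in the Med1cKO pool, and no member was at least 2-fold lower. This was 2 of 8 detected members (25%), beside 3.95% of the 7955 detected genes past 2-fold in that direction and 1.81% past it in the other. At a limit of 1.5-fold, 3 members were higher (Degs1 in addition), beside 9.25% of all detected genes. The median log2 ratio of the 8 members was 0.54, against -0.04 over all detected genes. The log2 ratio was above 0 for 7 of the 8, as it was for 45.6% of all detected genes. Because the members were chosen with earlier results of these data known, these shares and medians describe the set and cannot be read as enrichment. These folds are after background correction, which removes a background inferred from the detection p-values and widens the ratios of dim probes.

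**Figure D1:**
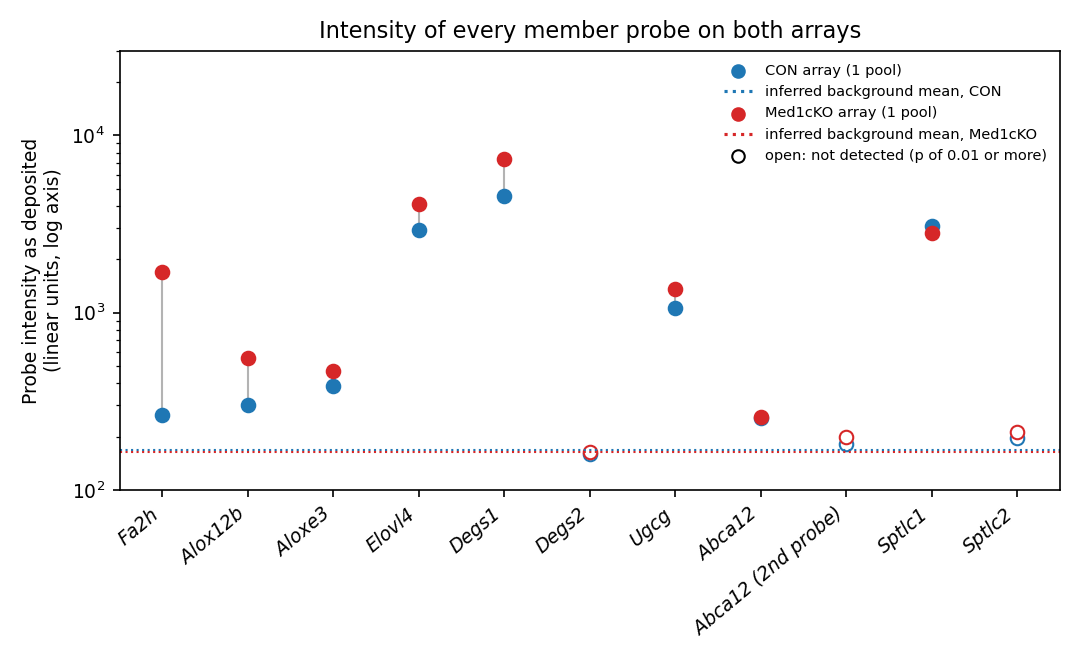
Deposited intensity (linear units on a log axis) of each of the 11 member probes, with 1 point for the CON array and 1 for the Med1cKO array; open points were not detected (detection p of 0.01 or more) and dotted lines mark the inferred background mean of each array. Fa2h goes from 266 to 1697, Sptlc1 differs little, and Degs2, Sptlc2 and the second Abca12 probe lie near background on both arrays.

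Fa2h, fatty acid 2-hydroxylase, adds the hydroxyl group of 2-hydroxy ceramides and is known in mouse skin from sebaceous glands as well as epidermis. Its single probe (ILMN_2746783) read 266 intensity units in CON (detection p 0.00376) and 1697 in Med1cKO (detection p 0). The CON value lay 4.49 background SDs above the inferred background mean of its array, and the Med1cKO value 90.1. Thus the transcript was just above the detection limit in the control pool and clear of it in the knockout pool. The log2 ratio was 3.83, a 14.2-fold difference and the 2nd highest among the 7182 genes detected on both arrays. Genes in the same level bin (1 of 10) scattered with a robust SD of 0.40, and the Fa2h ratio was 9.56 times that. This scatter is between genes and says nothing of replicates. Bins were set by the mean level of both arrays, so Fa2h was placed above its dim CON level (log2 6.81). The bin of Abca12, which is near that level on both arrays, had a larger robust SD of 0.55. The size rests on the low control value: the fold was 6.67 without background correction and 6.79 with the authors' normalized values (280 in CON and 1898 in Med1cKO). In the order of ratios of genes detected on both arrays, its neighbours were Stfa1 above (log2 ratio 0.62 larger), with no other gene above that, and Ovol1 and Ces1d below (0.11 and 0.78 smaller).

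Alox12b and Aloxe3 act in sequence on the same acylceramide. Alox12b, which adds oxygen to the linoleate, read 301 intensity units in CON and 559 in Med1cKO (probe ILMN_1235966), 6.08 and 23.3 background SDs above background. Its log2 ratio was 1.53 (2.89-fold), 3.02 times the robust SD of its level bin. Its fold was 1.93 without background correction and 1.96 with the authors' normalized values, so that it no longer reached 2-fold in either. Aloxe3, which turns the product into an epoxy alcohol, read 386 units in CON and 470 in Med1cKO (probe ILMN_1248005). Its log2 ratio was 0.53, 1.15 times the SD of its bin, and 13.2% of detected genes had a ratio at least as high. Both lipoxygenases were thus higher in the Med1cKO pool, with the larger difference for the first enzyme; the difference between the 2 ratios could not be tested with 1 array per group.

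In RefSeq, Aloxe3 and Alox12b are neighbouring coding genes on chromosome 11, between Hes7 and Alox8. Alox8, another lipoxygenase, was detected on neither array, reading 150 intensity units in CON and 165 in Med1cKO. The other member genes lie on chromosomes 1 (Degs1 and Abca12), 4 (Ugcg), 8 (Fa2h), 9 (Elovl4), 12 (Degs2 and Sptlc2) and 13 (Sptlc1).

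Sptlc1 and Sptlc2 encode subunits of serine palmitoyltransferase. Sptlc1 read 3079 intensity units in CON and 2821 in Med1cKO (probe ILMN_2703159), a log2 ratio of -0.06 and the only ratio below 0 among the 8 members. Sptlc2 had intensities of 197 and 214 (probe ILMN_2691623) with detection p-values of 0.117 and 0.0163, and no fold is given. The start of the pathway, as far as its Sptlc1 probe shows, therefore differed by 1.05-fold between the pools.

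Degs1 and Degs2 encode desaturases that act on dihydroceramide, and Degs2 can also hydroxylate it to the phytosphingosine form. Degs1 read 4566 intensity units in CON and 7347 in Med1cKO (probe ILMN_2709470), which gave a log2 ratio of 0.72 (1.65-fold). This was 3.08 times the SD of its level bin, which at 0.23 was the smallest of the 10 bins. A ratio at least as high was found in 9.20% of detected genes, against 2.48% for Alox12b. Its fold lay at 1.63 without background correction and 1.66 with the authors' normalized values. Degs2 was near background on both arrays, with intensities of 160 and 164 (probe ILMN_2696173) and detection p-values of 0.546 and 0.356. Its transcript was therefore not detectable with this probe, which does not show that it was absent.

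Elovl4, the elongase that makes the ultra-long acyl chains of acylceramides, read 2942 intensity units in CON and 4100 in Med1cKO (probe ILMN_1250507). Its log2 ratio was 0.55 (1.47-fold), 1.91 times the robust SD, and 12.6% of detected genes had a ratio at least as high. Ugcg, which glucosylates ceramide before export, had 1069 in CON and 1361 in Med1cKO (probe ILMN_2840091). Its log2 ratio was 0.48 (1.40-fold), 1.39 times the robust SD, with 14.6% of genes as high. Both were higher in the Med1cKO pool by amounts that many other genes of the array also showed.

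Abca12, the transporter that loads glucosylceramides into lamellar granules, read 256 intensity units in CON and 257 in Med1cKO on its probe with the higher level (ILMN_1244508), with detection p-values of 0.00376 and 0.00125. Its log2 ratio was 0.12 (1.09-fold), 0.22 times the robust SD. The other probe (ILMN_1228438), with intensities of 180.7 and 198.1, was detected on neither array. Both Abca12 probes were thus close to background in both pools, where a difference could have gone undetected.

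**Figure D2:**
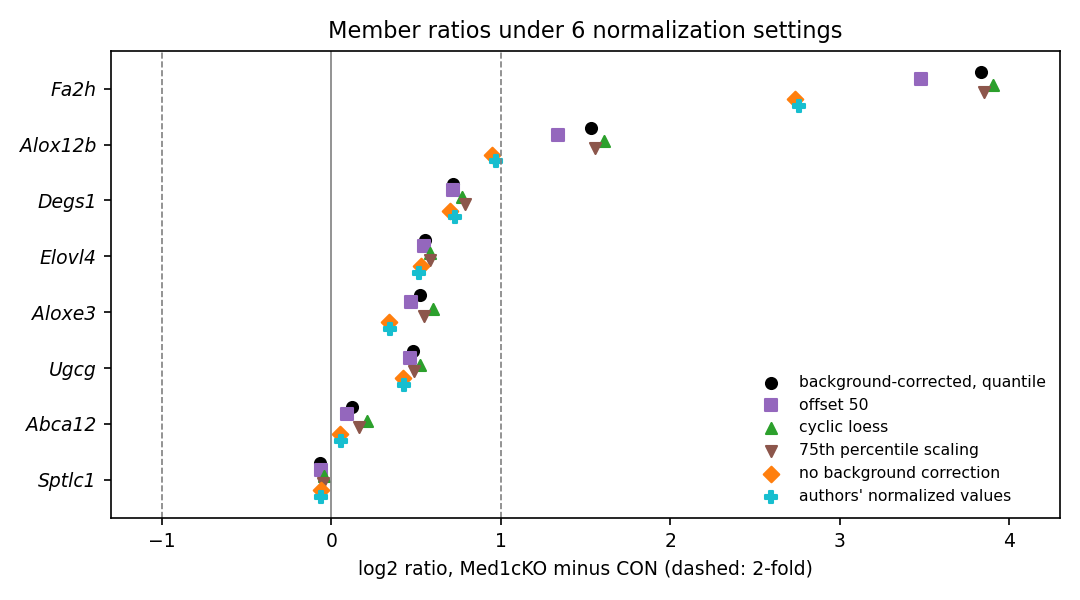
Log2 ratio (Med1cKO minus CON) of the 8 detected members under 6 ways of normalizing, 1 marker for each; dashed lines mark 2-fold. Fa2h lies beyond 2-fold in every setting shown, Alox12b crosses the line without background correction and with the authors' normalized values, and the other 6 members stay inside it.

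The members were thus unlike one another: the ratios ran from -0.06 (Sptlc1) to 3.83 (Fa2h). In log2 units, the ratios that moved most with the background correction were those of Fa2h and Alox12b, whose probes were dim in CON. Aloxe3 and Abca12, also dim, moved less in these units (from 0.53 to 0.34 and from 0.12 to 0.05 without the correction). In proportion to their size they moved more than Fa2h (from 3.83 to 2.74). The ratios of Degs1 (0.70 to 0.79), Elovl4 (0.52 to 0.59) and Ugcg (0.42 to 0.52) moved little over the alternatives tried. Intensities of different probes cannot be set against each other, so no order of the levels of the genes is given.

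**Figure D3:**
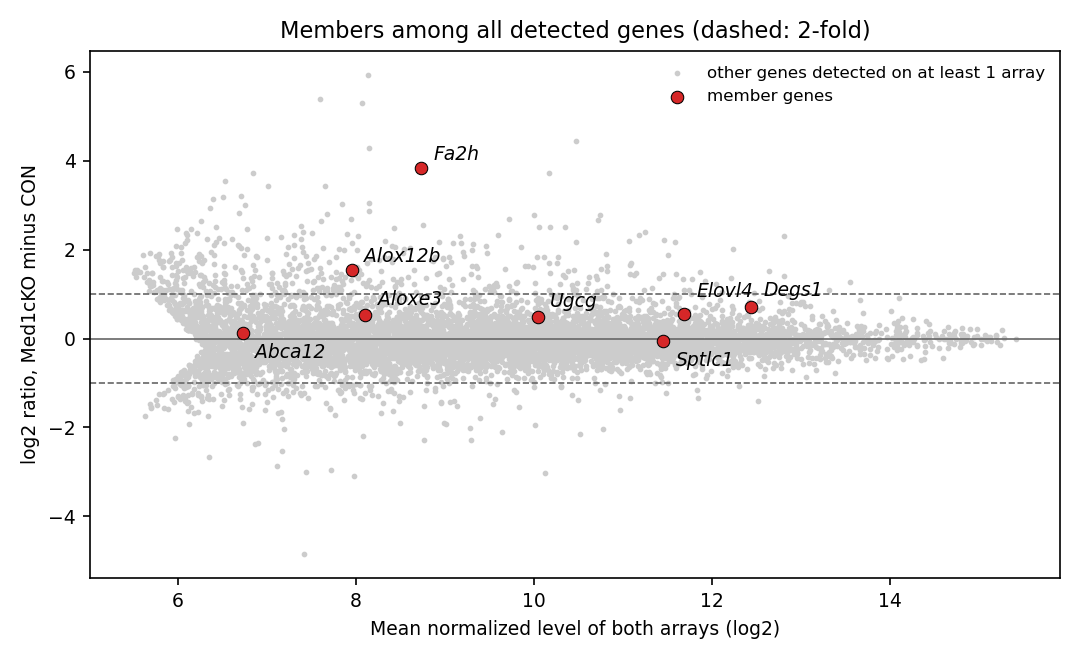
Log2 ratio (Med1cKO minus CON) against the mean normalized log2 level of both arrays for the 7955 detected genes (grey) and the 8 detected members (red, named); dashed lines mark 2-fold. Fa2h stands among the highest ratios, Alox12b lies above 2-fold, and the other members lie between -0.06 and 0.72.

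The rest of the pathway was read from 5 lists. In the counts, the undetected value of a gene detected on 1 array was lifted to the lowest detected level. Elovl6, Tgm1 and Grhl3 were at least 2-fold higher and Scd2 at least 2-fold lower, and no other detected gene reached 2-fold on this count. Pparg and Sgms2, detected in Med1cKO only, had larger measured ratios (5.17-fold and 2.38-fold). In de novo ceramide synthesis none of 6 detected genes, of 11 with a probe, was 2-fold different, and the median log2 ratio was 0.12. Ormdl3, which restrains serine palmitoyltransferase, had 0.31, its small subunit Sptssa -0.26, and the ceramide synthase Cers5 0.15. In ceramide release and turnover none of 16 detected genes, of 21, was 2-fold different, and the median was -0.07, with 7 genes above 0 and 9 below. The lysosomal galactosidase Glb1 had -0.68 and the ceramidase Asah2 0.60. Sgms2, a sphingomyelin synthase, was detected in the Med1cKO pool only, at least 1.22-fold higher. Here and for the other genes detected on 1 array, "at least" sets a bound on the background-corrected scale alone, and the same bound without that correction is smaller (1.08-fold for Sgms2).

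In fatty acid elongation and activation 1 of 17 detected genes, of 20, was at least 2-fold higher and 1 lower, with a median of 0.05. Elovl6, an elongase of long-chain fatty acids, read 1239 intensity units in CON and 2746 in Med1cKO, 2.53-fold higher (2.34-fold without background correction). Scd2, a stearoyl-CoA desaturase, was detected on the CON array alone, with intensities of 344 and 214. It was lower in Med1cKO by at least 2.58-fold after background correction and by at least 1.52-fold without it. Acsl4, an acyl-CoA synthetase, had a log2 ratio of 0.77 on its probe with the highest level and 0.20 on another detected probe. Among genes of acylceramides and the lipid envelope 1 of 6 detected genes, of 12, was at least 2-fold higher, with a median of 0.28. Tgm1, the transglutaminase that links envelope proteins and lipids, was 2.72-fold higher (1.82-fold without background correction), with intensities of 293 and 514. The cholesterol sulfotransferase Sult2b1 had a log2 ratio of 0.91, with 0.70 on another detected probe, and the lipoxygenase Alox12e had 0.69. The other 3 detected genes of this list had ratios below 0: Pnpla1 (-0.47), Abhd5 (-0.23) and Cyp4f39 (-0.12).

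Among regulators of barrier lipids 1 of 10 detected genes, of 12, passed 2-fold upward, and their median log2 ratio was 0.47, or 0.27 when the 2 detected on a single array were set to their bounds. Grhl3, a grainyhead factor of epidermal barrier formation, was 2.46-fold higher (1.62-fold without background correction), with intensities of 265 and 415. Cebpb, a factor of epidermal differentiation, had a log2 ratio of 0.95. The measured ratio was above 0 for 8 of the 10 regulators and below 0 for 2, Srebf1 (-0.64) and Rxra (-0.10). Pparg, a lipid-sensing nuclear receptor, was detected in the Med1cKO pool only, at least 1.99-fold higher, or at least 1.36-fold on uncorrected values, with 2 other probes detected on neither array. The 5 lists were therefore mixed, and only those of the lipid envelope and of the regulators had a median above 0.2, beside the -0.04 of all detected genes.

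**Figure D4:**
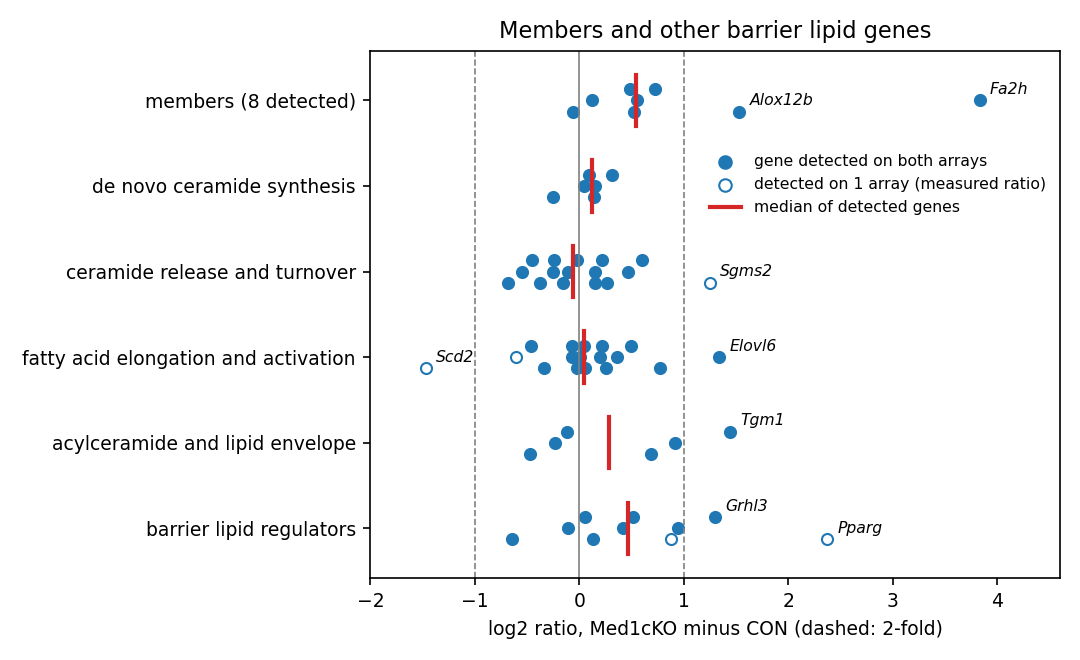
Log2 ratio (Med1cKO minus CON) of each detected gene in the member set and in 5 other barrier lipid lists; open points are genes detected on 1 array at their measured ratio, red bars are medians and dashed lines mark 2-fold. The members have a median of 0.54, with Fa2h and Alox12b to the right of 2-fold.

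Markers of other cell types were read beside these values, since fewer cells of a type and less RNA per cell cannot be told apart in pooled RNA. Of the sebocyte markers 3 of 8 detected genes, of 11 with a probe, passed 2-fold upward and none downward. Mgst1, a glutathione transferase, was 6.89-fold higher, Cidea, a lipid droplet protein, at least 5.75-fold and Plin2, another droplet protein, 2.38-fold. Without background correction these were 5.25-fold, at least 2.72-fold and 1.55-fold, so that 2 of the 8 genes passed 2-fold. Scd1, the brightest of them, had a log2 ratio of 0.01, and Elovl3, Awat2 and Far2 were detected on neither array. The ratio was above 0 for 6 of the 8 and below 0 for 2. Fasn, detected in CON only, was at least 1.23-fold lower in Med1cKO (at least 1.08-fold without background correction). Acsbg1 had -0.08, with 0.02 on another detected probe. Cidea and Pparg were detected in Med1cKO only, so they could only count upward or not at all. The summed intensity of the sebocyte list, background included, was 9616 in CON and 12596 in Med1cKO. Pparg is in both this list and that of the regulators, and Scd1, Fasn and Elovl3 are also in the elongation list. Of 6 upper follicle markers 5 had a log2 ratio above 0 and 2 passed 2-fold upward (Krt79 2.86-fold, Plet1 at least 4.61-fold, or 2.79-fold and at least 2.30-fold without background correction), with summed intensities of 28857 and 51317. None of 8 suprabasal and granular markers was 2-fold different (median log2 ratio -0.05, summed intensities 78920 and 76653). Their ratio was above 0 for 4 and below 0 for 4. The largest difference among them was that of Flg2, 1.92-fold lower in Med1cKO (1.76-fold without background correction). None of 7 basal markers was 2-fold different (median -0.18, summed intensities 161993 and 140167).

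Some markers of cells outside the epithelium also passed 2-fold upward in the Med1cKO pool. Of the fibroblast markers 3 of 5 detected genes, of 7, did so (Dcn at least 25.97-fold, Col1a1 at least 3.73-fold, Sparc just at 2-fold). Without background correction 1 did so, with Dcn at least 10.03-fold, Col1a1 at least 1.99-fold and Sparc 1.85-fold higher. On another Sparc probe, detected on both arrays, the log2 ratio was 2.15. Of the 5 detected fibroblast genes, 4 were detected in Med1cKO only, so they could only count upward or not at all. The fibroblast list had summed intensities of 1965 and 5399, and Col1a2 and Pdgfra were detected on neither array. Of the immune markers 4 of 5 detected genes, of 6, passed 2-fold upward (Cd3e, Cd207, H2-Aa and Cd3g), or 1 (Cd3g, 2.15-fold) without background correction, with sums of 2398 and 3968, and Ptprc was detected on neither array. Of the adipocyte markers Lpl alone was detected, in Med1cKO only, so the same limit holds for it. Lpl was at least 7.78-fold higher in Med1cKO (at least 3.45-fold without background correction). Adipoq, Fabp4 and Plin1 were detected on neither array (sums of the list 695 and 1274). Of the erythroid markers Hba-a1 was 6.46-fold higher and Hbb-bt at least 1.72-fold, or 4.76-fold and at least 1.26-fold without background correction (sums 827 and 2695). Melanocyte and endothelial lists had 1 detected gene each, Dct (no fold to give) and Egfl7. The Egfl7 probe with the highest level was at least 1.21-fold higher, while another, detected in CON only, went the opposite way (measured log2 ratio -0.72). These lists had sums of 817 and 930, and of 708 and 776. The part of sebocytes, upper follicle cells and cells outside the epithelium in the Fa2h, Alox12b and other member values was not tested.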

How the data were processed

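RNA of 2 keratinocyte pools, sorted by the design text, was measured on Illumina bead arrays, grouped by sample title. Per the file headers, the deposited intensity values are non-normalized; they are linear and still contain background, as their lowest values show. The submitters' processing notes name GenomeStudio 2011.1. The detection p-value deposited beside each intensity, per the file headers, was used to call a probe detected below 0.01. The authors' normalized intensity values, by a method not given in the sources used here, share nearly 1 distribution and served as an alternative.

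Intensities were background-corrected with normexp (background inferred from the detection p-values, mean 168 and SD 21.9 in CON, 163 and 17.0 in Med1cKO; offset 16), quantile-normalized and log2-transformed with neqc of limma 3.58.1 in R 4.3.3. The step was tested on simulated arrays. Later steps used pandas 2.3.3 and matplotlib 3.10.9 in Python 3.11.15. A symbol was given for 23978 of 25697 probes, and 23962 matched RefSeq (GRCm38.p6) by Entrez ID. For each gene the probe of highest mean level was used. The ratio is Med1cKO minus CON. Where 1 array alone detected a gene, the value of the other array was lifted to that array's lowest detected level (log2 6.41 for CON, 6.20 for Med1cKO), which gives a bound written as at least N-fold. The robust SD is the scaled median absolute deviation of ratios in 10 level bins. The number of arrays limits the precision and allows no test.

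Named genes were all members, the 3 detected genes of each pathway list with the largest absolute ratio and any at least 2-fold different, the neighbours of Fa2h in the order of ratios, and the highest or 2-fold different markers. Some genes with ratios below 0 were named in addition, after the data had been seen. Members and lists were chosen with earlier results of these data known. Alternatives were no background correction, cyclic loess, 75th percentile scaling, the authors' values, an offset of 50, a detection p of 0.05, the mean of all detected probes, detection on both arrays and a 1.5-fold limit.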

Additional observations from a re-analysis of the deposited data

How the results depend on the processing

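Without background correction 1 member (Fa2h) was at least 2-fold higher, and 155 genes of the array were higher and 44 lower, against 314 and 144. With the authors' normalized values these counts were 1, 163 and 46. In both settings no gene of the elongation list was 2-fold lower (0), and none of the lipid envelope list (0) or the regulators (0) was 2-fold higher. The marker counts without background correction, given beside them, were added after the data had been seen. The log2 ratio of Fa2h was then 2.74 and 2.76. The regulators had 2 genes at least 2-fold higher with cyclic loess, 3 with 75th percentile scaling and 2 at a detection p below 0.05. With an offset of 50, 95 genes were at least 2-fold lower. Among genes detected on both arrays, 0 of the elongation list were lower. At a limit of 1.5-fold, 736 genes were higher and 658 lower. In the turnover list 1 was higher and 1 lower, in the elongation list 2 were higher, in the lipid envelope list 3 were higher, and of the regulators 3 were higher and 1 lower. At a detection p below 0.05 Sptlc2 counted as detected in Med1cKO, with a measured log2 ratio of 0.53. These causes were not tested, beyond the narrower ratios that uncorrected values give by construction. The direction of each of the 8 detected members was the same in all alternatives, and each member median and pathway list median moved by less than 1.5-fold. For the direction this was partly fixed in advance. The detection p of 0.05, the mean of detected probes and detection on both arrays left these 8 ratios unchanged. A 1.5-fold limit alters no ratio, and the remaining alternatives rescale the same readings. No replicate could be left out, and no paired analysis was possible because each group has 1 array. Values near background limit Fa2h in CON, Alox12b, Abca12, Degs2 and Sptlc2.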
